A study of Mus musculus with 6 samples.

Results

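Transcripts of Rcan1, of the phosphatase calcineurin and of the NFAT transcription factors were examined in glomeruli, the filtering units of the kidney, from Control mice and mice with diabetic kidney disease (DKD). The set holds 10 of the 55401 genes in the deposited count table, taken by name, namely the calcipressins Rcan1, Rcan2 and Rcan3, the calcineurin subunits Ppp3ca, Ppp3cb, Ppp3cc and Ppp3r1, and the factors Nfatc1, Nfatc2 and Nfatc3. The set was chosen by pathway with the difference between the Control and DKD counts of these libraries already known, so every difference between the groups in these 10 genes is given as a description and not as a test. The 2 groups had 3 libraries each, with totals from 71154026 to 83576494 counts. The labels give the groups only as Control and DKD under genotype, and strain, age, sex, the way the disease was induced and whether animals were pooled are not stated in them. Nor do they say that each library came from its own animal, so the standard errors and p-values measure only the spread between these libraries.

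Calcineurin is a protein phosphatase made of a catalytic subunit that binds calmodulin and a regulatory subunit that binds calcium. When calcium in the cell rises, it removes phosphate groups from NFAT proteins, which then enter the nucleus and act on their target genes until kinases send them out again. Calcipressins bind calcineurin and restrain it. One transcript of Rcan1 starts at an internal promoter that NFAT itself activates, so this transcript is widely used as a readout of the pathway. In podocytes, the epithelial cells of the glomerular filter, calcineurin also acts on synaptopodin, and it is the target of the drugs cyclosporine and tacrolimus.

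All libraries held RNA from outside the glomerulus. Levels are given in CPM, in which TMM factors bring all libraries to the same size. The 8 podocyte markers summed to 451 to 646 CPM in Control and 318 to 442 CPM in DKD. The 10 proximal tubule markers summed to 17000 to 37700 CPM in Control and 8760 to 17700 CPM in DKD. Kap, which alone spanned 4350 to 21100 CPM, made up much of that overlapping sum, while gene by gene all 10 had a negative log2 fold change in DKD, with a median of −0.88 against −0.57 for the podocyte markers. Slc5a12 (−2.56 ± 0.25, edgeR adjusted p 0.0192) and Slc5a2 (−1.82 ± 0.30, edgeR adjusted p 0.0445), transporters of lactate and glucose, fell. Control replicate 3 had the highest proximal tubule sum, 37700 CPM, and lay far from the other Control libraries on the leading principal component of log CPM (−101.3 against −18 and −15). Sums of the 8 mesangial and smooth muscle markers ran from 259 to 460 CPM in Control and 257 to 350 CPM in DKD, those of the 8 endothelial markers from 380 to 570 and 245 to 424 CPM, and those of the 6 parietal epithelial markers from 304 to 474 and 532 to 624 CPM. All 8 mesangial and smooth muscle markers and all 8 endothelial markers had a negative log2 fold change (medians −0.43 and −0.58), and the angiotensin receptor Agtr1a fell (−1.07 ± 0.16, edgeR adjusted p 0.036). These directions were the same with library totals as the scaling. Slc5a12, Slc5a2 and Agtr1a kept their direction in 16 of 16 alternative settings and their calls in 12, 8 and 10, and none of the 3 calls held without Control replicate 1, DKD replicate 1 or DKD replicate 3. Of the parietal epithelial markers Krt8 and Cd24a did not overlap between the groups, and the other 4 did. Over all genes tested 30.7% did not overlap, so this count is near the background. Sums of the 10 leukocyte markers overlapped, at 81.7 to 108 CPM in Control and 61.6 to 123 CPM in DKD, as did those of 8 distal nephron and collecting duct markers (5170 to 6070 and 4050 to 6520 CPM) and of the 5 erythrocyte transcripts (355 to 744 and 275 to 1380 CPM). In the distal sum Umod alone spanned 1840 to 3660 CPM. Gene by gene, Aqp2 was higher in every DKD library than in every Control library (1.59 ± 0.44, edgeR adjusted p 0.104). Slc12a3 (−0.52), Slc4a1 (−0.94) and Slc26a4 (−1.36) were lower in every DKD library, and Umod, Slc12a1, Calb1 and Scnn1g overlapped. Of all genes tested 15.5% were higher and 15.2% lower in every DKD library, and the difference from these shares was not tested. No marker was at 0 in every library. In whole tissue of this kind, fewer cells of a type and less RNA per cell cannot be told apart.

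Rcan1 differed most between the groups, at a fold of 3.16 in DKD over Control, while the other 9 genes lay within a log2 fold change of −0.53 to 0.38. The gene has 2 annotated starts, 66091 bases apart on the minus strand of chromosome 16. Their windows of 300 bases, from 250 before to 50 after each start, are shown since the internal one is where NFAT is known to act. They were taken from RefSeq on GRCm38.p6. Capitals mark GGAAA, the core of NFAT sites, TGACTCA, the site of AP-1, with which NFAT often binds, and TGACGTCA, the cyclic AMP response element, each on either strand.
Rcan1 upstream start, chr16:92466120-92466419, minus strand: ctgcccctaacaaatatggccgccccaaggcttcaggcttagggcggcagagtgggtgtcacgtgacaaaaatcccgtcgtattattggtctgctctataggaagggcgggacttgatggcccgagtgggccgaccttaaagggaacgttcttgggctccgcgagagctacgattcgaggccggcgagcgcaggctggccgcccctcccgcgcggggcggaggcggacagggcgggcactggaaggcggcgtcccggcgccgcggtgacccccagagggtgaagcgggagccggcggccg
Rcan1 internal start, chr16:92400029-92400328, minus strand: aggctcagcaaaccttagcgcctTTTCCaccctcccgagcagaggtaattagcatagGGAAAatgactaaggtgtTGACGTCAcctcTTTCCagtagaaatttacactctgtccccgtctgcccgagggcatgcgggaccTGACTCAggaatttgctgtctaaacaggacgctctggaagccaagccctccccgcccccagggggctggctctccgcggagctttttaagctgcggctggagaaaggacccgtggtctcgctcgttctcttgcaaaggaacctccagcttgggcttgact
The internal window held 3 matches to GGAAA, and its upstream counterpart held 0. At least 3 such matches were found in 9.42% of the 32851 RefSeq start windows of this length, and at least 1 in 61.3%. The 3 matches began 227, 193 and 163 bases before the internal start, the middle one on the gene's strand and the other two on the opposite strand. TGACTCA was matched 1 time in the internal window, against 5.2% of all windows, and TGACGTCA 1 time, against 1.79%. None of the matches overlapped another. These motifs were chosen with the sequences in view, and a match is not a measured site. The deposited counts are summed per gene, so they do not tell which start the Rcan1 transcripts came from.

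Rcan1 (ENSMUSG00000022951) was measured at 64.1, 70 and 60.8 CPM in Control replicates 1 to 3 and at 174, 192 and 249 CPM in DKD replicates 1 to 3. Every DKD library lay above every Control library, and the lowest DKD value was above the highest Control value by 1.32 on the log2 scale. The means were 65 ± 4.64 and 205 ± 38.8 CPM (SD, n = 3), and the log2 fold change, DKD over Control, was 1.66 ± 0.16 (SE), a fold of 3.16. This lay at the 97.3 percentile of all 19717 genes tested, where 534 genes had a larger one. The 3 DKD libraries spread more than the Control ones, with a highest to lowest ratio of 1.43 against 1.15. Raw counts behind these values ran from 4601 to 17751. Rcan1 was lowest in Control replicate 3 and highest in DKD replicate 3, the libraries with the highest and the lowest sum of proximal tubule markers. Without Control replicate 3 the log2 fold change was 1.61 ± 0.18. Without DKD replicate 3 it was 1.5 ± 0.13, the lowest of 16 alternative settings. The part of tubule content in Rcan1 was not tested. Some markers of several other cell types differed between the groups too, as given above. By sign, the proximal tubule genes were lower in 10 of 10 cases with 2 past the threshold, the mesangial and smooth muscle genes in 8 of 8 with 1 past it, and the endothelial genes in 8 of 8. Of all genes tested 1.16% were past it. Most of the mesangial and smooth muscle genes and most of the endothelial genes overlapped between the groups, as did the sums of both lists. The summed podocyte markers were lower, and the summed parietal epithelial markers higher, in every DKD library than in every Control library. Of the distal nephron and collecting duct markers 3 were higher and 5 lower. Among them Aqp2 was higher, and Slc12a3, Slc4a1 and Slc26a4 lower, in every DKD library than in every Control library, as were 15.5% (higher) and 15.2% (lower) of all genes tested. The part of these differences in that of Rcan1 was not tested.

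**Figure D1:**
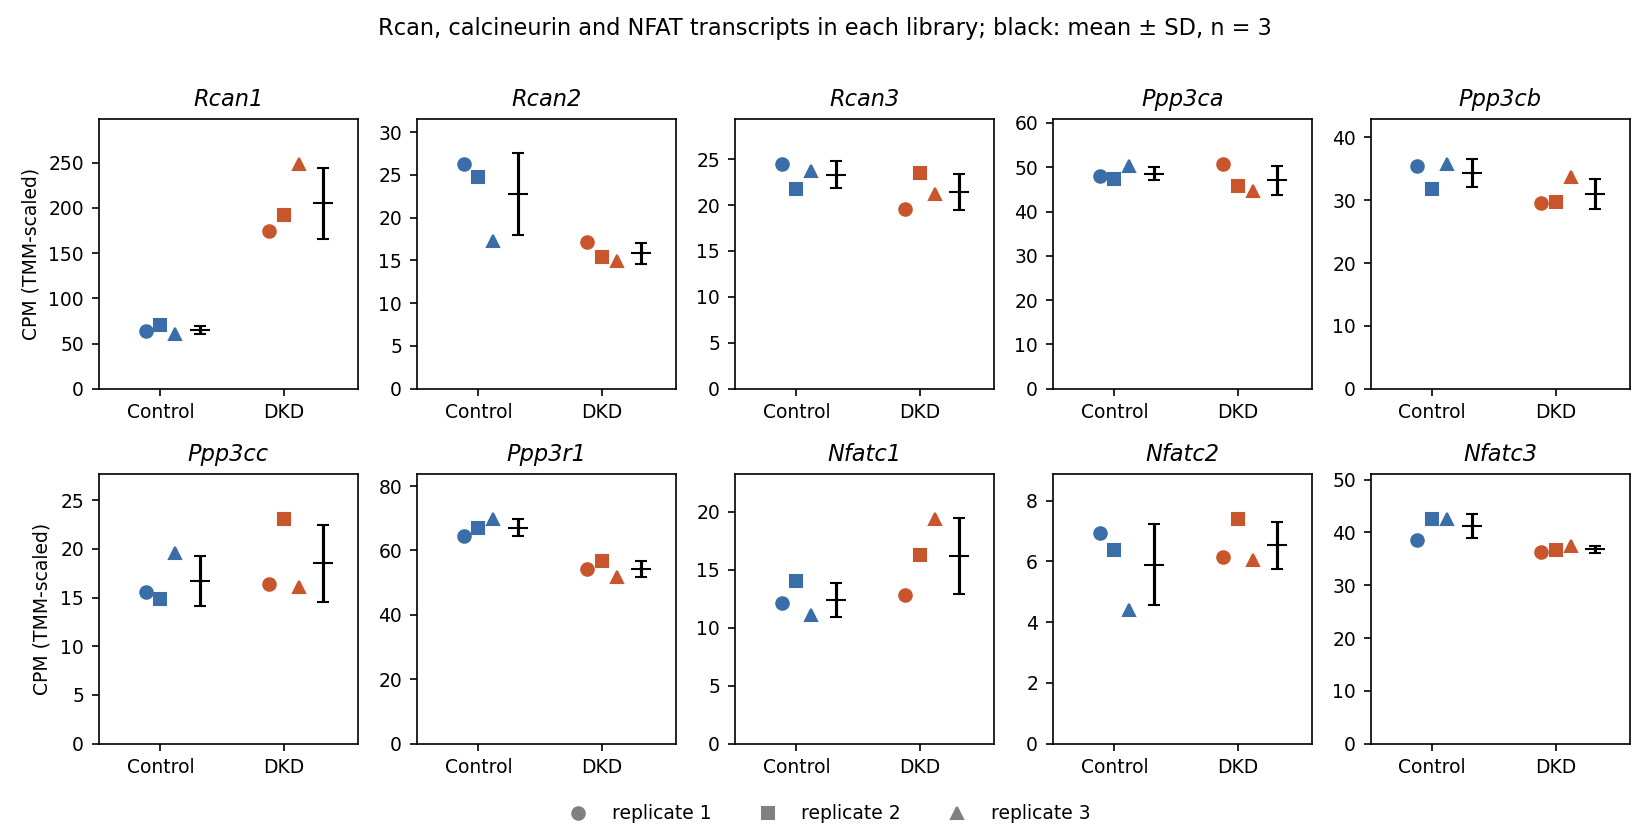
TMM-scaled CPM (vertical axes, from 0) of the 10 genes in each library, with Control in blue and DKD in orange, symbols for replicates 1 to 3 and the mean ± SD in black. Rcan1 sits between 60.8 and 70 CPM in Control and between 174 and 249 CPM in DKD, while most other genes overlap or differ by little.

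Its paralogs did not share that pattern. Rcan2, a calcipressin best known from brain and muscle, was measured at 26.3, 24.7 and 17.3 CPM in Control and at 17.2, 15.4 and 14.9 CPM in DKD. All DKD values lay below all Control values, but Control replicate 3 was almost level with DKD replicate 1. The Rcan2 log2 fold change was −0.53 ± 0.18, and −0.69 without Control replicate 3, the only setting of 16 in which it was past the threshold of an adjusted p of 0.05. Rcan3, the remaining calcipressin, was at 24.5, 21.7 and 23.7 CPM in Control and 19.6, 23.5 and 21.2 CPM in DKD, and these values overlapped (−0.12 ± 0.12). Per kilobase of exonic bases Rcan1 made up 68.3% ± 2.22 of the summed calcipressin level in Control and 89.3% ± 1.89 in DKD. With the coding length as divisor these shares were 57.6% ± 2.4 and 83.8% ± 2.66.

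Among the calcineurin subunits the regulatory one differed most between the groups. Ppp3r1, which encodes the calcium-binding regulatory subunit, was at 64.4, 67.1 and 69.9 CPM in Control and 54.4, 56.8 and 51.9 CPM in DKD. The groups did not overlap, with means of 67.1 ± 2.76 and 54.3 ± 2.44 CPM, and the log2 fold change was −0.30 ± 0.10. Exons of Wdr92 on the same strand cover 14.31% of the exonic bases of Ppp3r1, and how reads in them were assigned is not stated in the labels.

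The catalytic subunits had smaller differences. Ppp3ca, the alpha subunit, was at 48.1, 47.4 and 50.2 CPM in Control and 50.8, 45.8 and 44.6 CPM in DKD (−0.05 ± 0.10). Ppp3cb, the beta subunit, was at 35.5, 31.8 and 35.8 CPM in Control and 29.6, 29.7 and 33.7 CPM in DKD (−0.15 ± 0.11). Ppp3cc, the gamma subunit, best known from testis, was at 15.6, 14.9 and 19.6 CPM in Control and 16.4, 23.1 and 16.1 CPM in DKD (0.15 ± 0.19). Values of all 3 genes overlapped between the groups. Ppp3cc rested on DKD replicate 2, without which its log2 fold change was −0.05. Which catalytic subunit was the most abundant depended on the length used. Per exonic base of all annotated transcripts Ppp3cc had the largest share of the 3 in Control (38.8% ± 2.66), but per coding base it had the smallest (16.7% ± 1.59) and Ppp3ca the largest (48.9% ± 1.44).

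The NFAT factors went in different directions by small amounts. Nfatc1, which activates its own transcription in lymphocytes and bone cells, was at 12.1, 14 and 11.1 CPM in Control and 12.8, 16.3 and 19.4 CPM in DKD. The groups overlapped at DKD replicate 1, and the log2 fold change was 0.38 ± 0.19, or 0.23 without DKD replicate 3. Nfatc2, prominent in T cells, was at 6.92, 6.37 and 4.39 CPM in Control and 6.14, 7.41 and 6.04 CPM in DKD (0.15 ± 0.23). The low Control value was that of replicate 3, and the Nfatc2 difference was −0.03 without it. Nfatc3, expressed in many tissues, was at 38.6, 42.5 and 42.6 CPM in Control and 36.2, 36.6 and 37.5 CPM in DKD. Its DKD values all lay below the Control ones, by a log2 fold change of −0.17 ± 0.10. Nfatc3 was the most abundant of the 3 per exonic base, with a share of 61.4% ± 3.64 in Control and 53.2% ± 3.72 in DKD. Leukocyte markers were present at unlike levels. Csf1r was at 61.9 ± 3.03 and 53.7 ± 18.8 CPM and the pan-leukocyte gene Ptprc at 17.3 ± 3.81 and 21.2 ± 8.08 CPM. The T cell gene Cd3e was at 1.15 ± 0.178 and 1.1 ± 0.814 CPM. Of the 10 markers 5 were higher and 5 lower in DKD. Cd79a did not overlap between the groups, at 0.394 ± 0.169 and 2.05 ± 1.39 CPM (edgeR adjusted p 0.0845). The others overlapped, among them Ms4a1 (0.0813 ± 0.0752 and 0.956 ± 1.41 CPM), Cd4 (1.19 ± 0.608 and 2.82 ± 1.69 CPM) and Cd8a (3.71 ± 1.32 and 2.09 ± 1.17 CPM). The part of leukocytes in the NFAT levels was not tested.

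**Figure D2:**
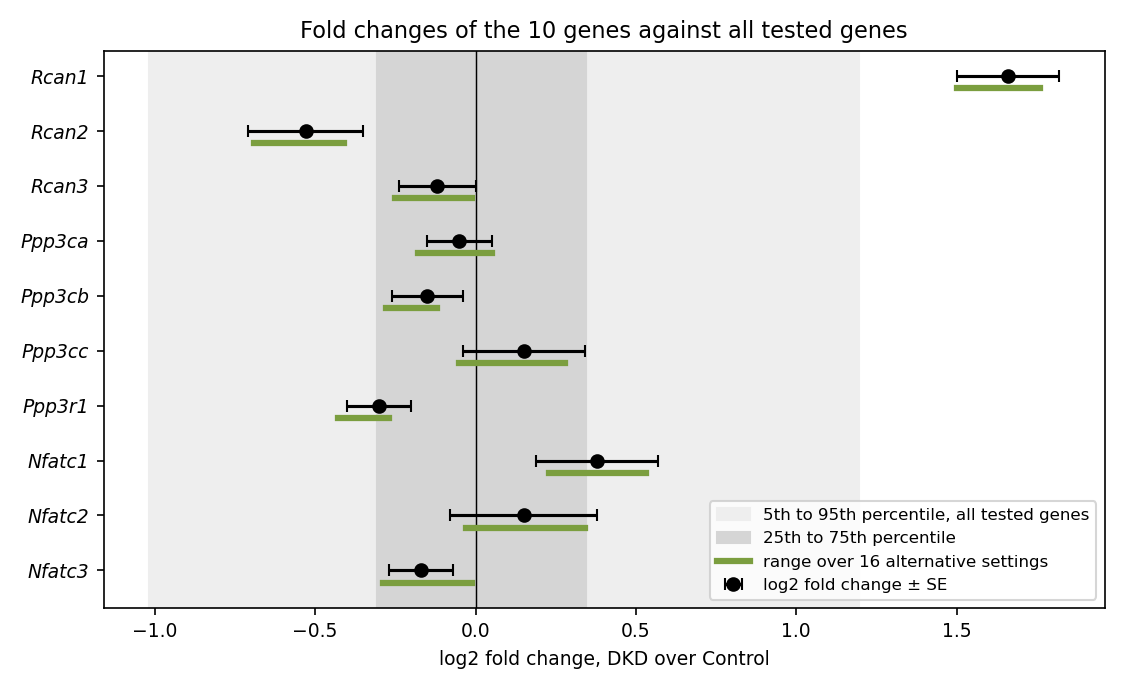
Log2 fold change, DKD over Control, of each of the 10 genes with its SE (black) and its range over 16 alternative settings (green), over the 25th to 75th (dark grey) and 5th to 95th (light grey) percentiles of all genes tested. Rcan1 at 1.66 lies outside the 5th to 95th percentile range of −1.02 to 1.2, and the other 9 genes lie inside it.

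Across the set, 4 of the 10 genes had a positive and 6 a negative log2 fold change, with a median of −0.08 against 0.003 over all genes tested. Library totals in place of TMM factors gave 3 and 7, since this scaling shifted the median of all genes to −0.130 and Nfatc2 to just below 0, and removal of a trend on transcript length gave 5 and 5, with Ppp3ca at 0.05. Control and DKD values were fully separate for 4 of the 10, of which Rcan1 was higher and Rcan2, Ppp3r1 and Nfatc3 were lower in DKD. Over all genes tested 30.7% did not overlap (15.5% higher and 15.2% lower), so this count is near the background. All 10 passed the filter on low counts, and 1 of them, Rcan1, was past an adjusted p of 0.05 in edgeR's quasi-likelihood test, where 1.16% of all genes were (0.725% higher and 0.431% lower). Since the set was chosen with this contrast known, nothing is read from that count. Rcan1 was past the threshold in 12 of 16 alternative settings, and was not without Control replicate 1 (log2 fold change 1.65), Control replicate 2 (1.71) or DKD replicate 1 (1.76), or with the replicate number as a block (1.64). Nothing is read from these calls either, nor from that of Rcan2 without Control replicate 3.

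Levels between genes were compared per kilobase of exonic bases over the 6 libraries. Rcan1 had the highest mean, with values from 19.7 to 80.7 CPM per kb. Ppp3r1 came next, at 16.1 to 21.6, and did not differ from Rcan1 beyond its spread in Control, where the means were 21.1 ± 1.51 for Rcan1 and 20.8 ± 0.855 for Ppp3r1. A gap separated these genes from Ppp3cc (5 to 7.75), Ppp3ca (4.47 to 5.09), Rcan2 (3.4 to 6.02), Rcan3 (3.83 to 4.79), Ppp3cb (3.36 to 4.06) and Nfatc3 (3.08 to 3.63), among which the ranges of all neighbours in this order overlapped. Nfatc1 lay below all of these at 1.49 to 2.6 CPM per kb, and Nfatc2 was the lowest at 0.415 to 0.701, with no overlap between neighbours at these last steps. Rcan1, Ppp3r1, Nfatc1 and Nfatc2 held their places with the longest transcript or the coding length as divisor, and some of the genes between them changed order. Which transcripts these tissues use was not measured, so the length behind each value is that of the annotation.

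**Figure D3:**
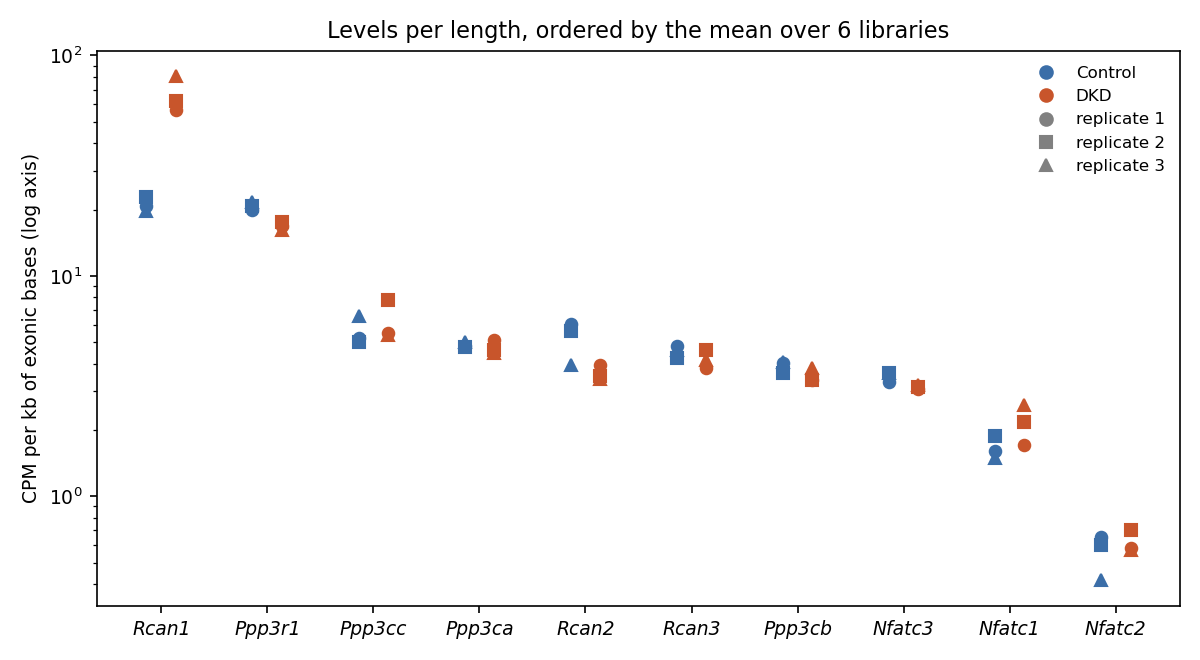
CPM per kilobase of exonic bases (log axis) of the 10 genes in each library, ordered by the mean over 6 libraries. Rcan1 and Ppp3r1 lie above 16, 6 genes lie between 3.08 and 7.75, and Nfatc1 and Nfatc2 are lowest.

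**Figure D4:**
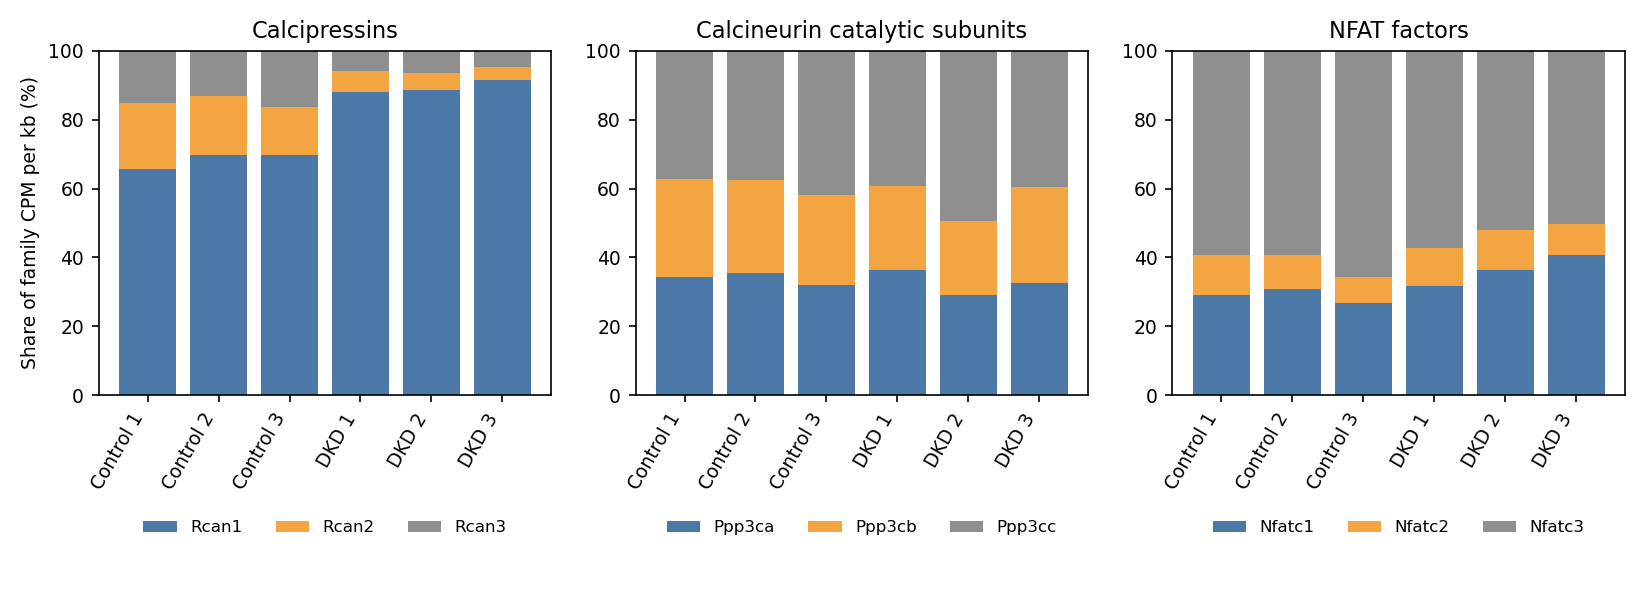
Share of the summed CPM per kb (percent, bars from 0 to 100) taken by each gene within the calcipressins, the calcineurin catalytic subunits and the NFAT factors, per library. The Rcan1 share lies between 65.8% and 91.4% and is higher in the 3 DKD libraries, and the Nfatc3 share lies between 50.2% and 65.6%.

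The other genes of the pathway were read from 7 lists with 91 genes, none of them among the 10. Of the 82 tested 1 rose and 1 fell in DKD past an adjusted p of 0.05 by edgeR, where 1.16% of all genes did, and both belong to the list of calcium entry and release. With no adjustment for multiple tests, 11 were higher and 9 lower at p under 0.05, where 22.6% of all genes tested passed that limit (11.8% higher and 10.9% lower). Orai1, the pore of the store-operated calcium channel, was at 17, 15.4 and 15.8 CPM in Control and 24.7, 26.4 and 25.2 CPM in DKD. It rose by a log2 fold change of 0.66 ± 0.10 (edgeR adjusted p 0.0419). Itpr2, a receptor that releases calcium from the endoplasmic reticulum, was at 71.7, 61.7 and 65.8 CPM in Control and 40.7, 36.3 and 41.4 CPM in DKD. It fell, with a log2 fold change of −0.75 ± 0.11 (edgeR adjusted p 0.0353). All 3 DKD libraries lay on 1 side of all Control libraries for both genes. Orai1 kept its direction in 16 of 16 alternative settings and its call in 6, with an adjusted p from 0.00125 to 0.178, and it lost the call with any 1 of the 6 libraries left out. Itpr2 kept its direction in 16 and its call in 8, with an adjusted p from 5.26e-05 to 0.168, and among the fits that left out a library it kept the call only without Control replicate 3. The list as a whole had 9 of 20 tested genes higher and 11 lower, and with library totals 4 and 16. Trpc6, a podocyte calcium channel in which mutations cause inherited glomerular disease, was low, at 0.575 ± 0.256 and 0.421 ± 0.294 CPM.

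None of the other 6 lists, with 62 genes tested, held a gene past the threshold by edgeR or limma-voom. At an unadjusted p under 0.05 edgeR gave 9 higher and 5 lower, beside 11.8% and 10.9% of all genes. DESeq2 called 6 of their genes, where it called 11.8% of all genes (2152 of 18250), so that count is no larger than the background. Calmodulin, the calcium sensor of calcineurin, is encoded by 3 genes, with Calm2 at 122 ± 10.2 and 146 ± 14.6 CPM (log2 fold change 0.26 ± 0.13) and Calm3 at 207 ± 14.7 and 250 ± 35.4 CPM (0.27 ± 0.15), and 0 of the 3 had an unadjusted p under 0.05. Of the 13 tested genes in the list of calcineurin binding proteins and inhibitors, 6 had an unadjusted p under 0.05 by edgeR (22.6% of all genes). Of these 5 were higher in DKD (11.8% of all genes), and DESeq2 called 3 of the list (11.8% of all genes). The list was drawn up by name, and binding to calcineurin was not measured. The difference of these shares from the background was not tested. Akap1, an anchoring protein of the mitochondrial surface, was at 79.2, 74.5 and 97.7 CPM in Control and 124, 132 and 133 CPM in DKD, without overlap. Its log2 fold change was 0.63 ± 0.13 (edgeR adjusted p 0.064), and it passed in 3 of 16 alternative settings. Akap5, which anchors calcineurin at membranes, was at 0.927 ± 0.222 and 0.296 ± 0.114 CPM (−1.64 ± 0.47, edgeR adjusted p 0.109).

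Kinases that move NFAT out of the nucleus and its cytoplasmic retention factors gave 3 of 11 tested genes with an unadjusted p under 0.05 by edgeR, where 22.6% of all genes had one, and DESeq2 called 1. Lrrk2, a kinase of the retention complex that is also known for its expression in kidney, was at 116, 153 and 206 CPM in Control and 62.6, 82.7 and 39.3 CPM in DKD (−1.36 ± 0.31, edgeR adjusted p 0.0732). Its highest value was in Control replicate 3 and its lowest in DKD replicate 3, the libraries with the highest and the lowest sum of proximal tubule markers, and the part of tubule content in it was not tested. Gsk3a, a kinase that phosphorylates NFAT, was at 80.9 ± 1.31 and 100 ± 6.77 CPM (0.31 ± 0.10, edgeR adjusted p 0.14). Of the further NFAT genes, Nfat5, the factor that answers to salt and lacks the calcineurin-binding region of the other NFAT proteins, was at 126 ± 38.3 and 90.6 ± 14.7 CPM, and Nfatc4 was at 4.12 ± 1.79 and 4.76 ± 0.847 CPM. Values of both overlapped between the groups, 0 of the 2 had an unadjusted p under 0.05 by edgeR, and DESeq2 called 0.

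Other substrates of calcineurin had 3 of 15 tested genes with an unadjusted p under 0.05 by edgeR, near the 22.6% of all genes, and DESeq2 called 1, where its share of all genes was 11.8%. Synpo, which encodes the podocyte protein synaptopodin, was at 74.4, 62 and 60.6 CPM in Control and 36.2, 44 and 56.8 CPM in DKD, without overlap (−0.52 ± 0.18, edgeR adjusted p 0.15). It is itself one of the podocyte markers, whose sums are given above. Ksr2, a scaffold of the MAP kinase cascade, was at 10.8, 12 and 25.7 CPM in Control and 8.43, 6.28 and 3.62 CPM in DKD (−1.40 ± 0.42, edgeR adjusted p 0.121). As for Lrrk2, its highest value was in Control replicate 3 and its lowest in DKD replicate 3. The part of tubule content in Ksr2 was not tested. Known NFAT target genes had 2 of 18 tested with an unadjusted p under 0.05 by edgeR, 1 in each direction and below the 22.6% of all genes, and DESeq2 called 1. Lif, a cytokine, was at 1.66 ± 0.827 and 4.26 ± 1.85 CPM (1.36 ± 0.50, edgeR adjusted p 0.17), and Myh7, a myosin heavy chain of slow muscle, at 0.365 ± 0.0944 and 0.114 ± 0.0625 CPM (−1.67 ± 0.61, edgeR adjusted p 0.169). Of this list 12 genes were higher and 6 lower in DKD (11 and 7 with library totals), with a median of 0.34. The largest positive log2 fold change of the list was that of Ptgs2 (1.65 ± 0.87, edgeR adjusted p 0.307), at 0.667 ± 0.631 and 2.1 ± 1.18 CPM with overlap. The median rests in part on genes below 1 CPM in both groups, such as Myh7. Since Rcan1 was chosen with this contrast known, nothing is read from its place beside this median.

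**Figure D5:**
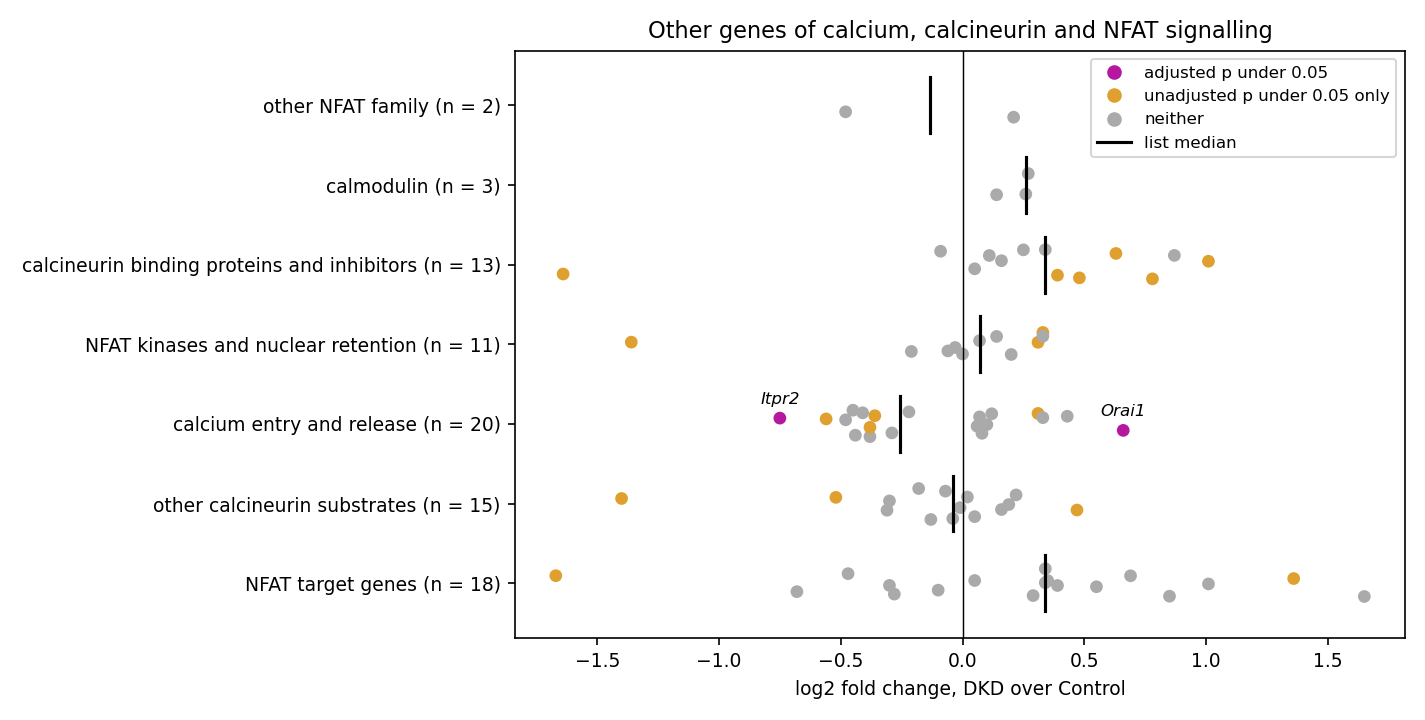
Log2 fold change, DKD over Control, of the tested genes in 7 lists of calcium, calcineurin and NFAT signalling, with the median of each list as a black bar. Orai1 (0.66) and Itpr2 (−0.75) passed the adjusted threshold, and orange points had an unadjusted p under 0.05 only.

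The genes whose profile over the 6 libraries was most like that of Rcan1 were looked up among 11045 genes with a mean of at least 5 CPM. By Pearson correlation of log2 CPM they were Sipa1 (0.9993), Entpd2 (0.9954), Kifc3 (0.9949), Agt (0.9937) and Gfer (0.9933). These 6 points share the difference between the groups, and 190 of the candidates had a correlation over 0.95. The likeness is one of shape and not of size. Agt, which encodes angiotensinogen, was at 45.9 ± 7.39 and 261 ± 31.4 CPM (log2 fold change 2.51 ± 0.17) and Entpd2, an enzyme that splits extracellular ATP, at 10.8 ± 0.901 and 26.5 ± 2.76 CPM (1.29 ± 0.13), whereas Sipa1 had 0.43 ± 0.10, Kifc3 0.38 ± 0.10 and Gfer 0.25 ± 0.10.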

How the data were processed

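Polyadenylated RNA was sequenced as stranded, paired reads, per the labels' protocols. The submitters' processing notes name fastp, HISAT2, StringTie, edgeR and GRCm39, without versions, and neither the annotation release nor the use of strand in counting is stated there. The deposited table of the authors holds unnormalized counts by Ensembl identifier. All were whole numbers, and values of 4 (6267) and 8 (2929) were more frequent than their neighbours 3 (3129), 5 (1993), 7 (1784) and 9 (1305), so they may be coverage estimates converted to reads. Totals ran from 71154026 to 83576494.

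Symbols and lengths came from GENCODE M21 on GRCm38, which matched 55141 of 55401 identifiers. No coordinates of that annotation are combined with the counts. RefSeq promoter windows on GRCm38.p6 matched 7 of the 10 genes. Ppp3ca, Ppp3cc and Nfatc1 had no match.

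Genes were kept with filterByExpr (minimum count 10), which left 19717, scaled with TMM and fitted in edgeR 4.0.16 (R 4.3.3) by quasi-likelihood on group alone. P-values were adjusted over all genes tested by Benjamini-Hochberg, at a threshold of 0.05. Each ± beside a log2 fold change is a standard error, and each ± beside a level or share an SD. The biological coefficient of variation was 33.2%. On simulated data with 3 libraries per group this called 49 of 100 genes with a simulated log2 change of 1, 89 of 100 with a change of 2, and 3 of 19061 with none. The simulation gave genes of the same level the same spread, held no outlying library and changed only genes with a mean of at least 1 CPM. Its rates therefore need not hold for these libraries. DESeq2 1.42.0 and limma-voom (limma 3.58.1) were alternatives, beside other scalings, filters, a length trend (5 degrees of freedom), the replicate block and each library left out in turn.

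The members and lists were chosen with earlier results of these data known. The rule for naming genes took the members, the list genes past the threshold (otherwise the 2 with the smallest p per list) and the 5 genes most correlated with Rcan1. Trpc6, Ptgs2, the marker genes named in the text, and the motifs were named after their values were seen.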

Additional observations from a re-analysis of the deposited data

How the results depend on the processing

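The log2 fold change of Rcan1 ran from 1.5 to 1.76 over 16 alternative settings. Signs of other members turned for Nfatc2 (library totals, and −0.03 without Control replicate 3), Ppp3ca (0.05 with the length trend removed) and Ppp3cc (−0.05 without DKD replicate 2). Over all genes 228 passed, against 2152 with DESeq2, 1478 at an adjusted p under 0.1, 516 with a filter of at least 1 CPM in 3 libraries and 56 with no filter. Leaving out 1 library at a time gave from 1 (without Control replicate 1) to 386 (without Control replicate 3). Library totals gave 101 higher and 174 lower, against 143 and 85. Of the pathway lists 2 genes passed, against 10 with DESeq2, 5 at an adjusted p under 0.1, 1 with library totals, and 0 by edgeR with the length trend removed or with no filter (13 and 20 at an unadjusted p under 0.05). Leaving out 1 library at a time gave from 0 to 2 (14 to 21 at an unadjusted p under 0.05). With the replicate number as a block edgeR called 0 genes overall and 0 in the lists (3322 and 15 at an unadjusted p under 0.05), but the labels do not say that a number links libraries. Deviations of same-numbered libraries correlated at −0.183, 0.066 and −0.224. Control replicates 1 and 2 correlated best with DKD replicate 3 (0.194 and 0.13), and Control replicate 3 with DKD replicate 1 (0.268). Of the DKD libraries only replicate 2 correlated best with its own number. In the order of levels 4 of 10 genes held their rank with the longest transcript as divisor and 6 with the coding length. The causes of these changes were not tested. Each of the 10 genes had at least 332 counts in every library.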

Other observations

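Among the 10 genes, the profile of Ppp3r1 over the 6 libraries mirrored that of Rcan1 most closely. The Pearson correlation of log2 CPM was −0.967 for this pair, against −0.809 for Rcan1 with Nfatc3, −0.773 with Rcan2, 0.798 with Nfatc1 and 0.24 with Ppp3cc. These correlations are over 6 libraries that share the difference between the groups and a common scaling, and are given as a description. Outside Rcan1, GGAAA was matched 4 times in the RefSeq promoter window of Ppp3cb (at least 4 in 2.65% of all windows), 3 times and 1 time in those of Nfatc2, 2, 0 and 0 times in those of Rcan2, 1 time in that of Rcan3, 1 and 0 times in those of Nfatc3 and 0 times in that of Ppp3r1. These counts are a description of the letters only.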
